A study of Mus musculus with 6 samples.

Results

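The genes described here encode the ITAM costimulatory arm of osteoclast signalling, and they were followed in mouse osteoclast precursors given RANKL with or without a plant leaf extract. They are the 10 rows of the deposited table whose gene symbol is Oscar, Trem2, Siglec15, Tyrobp, Fcer1g, Syk, Btk, Tec, Plcg2 or Blnk, out of 24940 genes. All 10 had a mean level high enough to be tested, as did 11595 genes of the whole table. The cells were bone marrow-derived macrophages (BMMs), which M-CSF supports in culture and which can become osteoclasts. M-CSF at 30 ng/mL was present in all groups over the 3 days. The -R group received no RANKL, the +R group received RANKL at 100 ng/mL, and the R+LE group received the same RANKL together with LE, a methanol extract of Abeliophyllum distichum leaves, at 10 μg/mL. Each group holds 2 libraries. The labels describe C57BL/6 mice aged 6 to 8 weeks, whereas the methods of the study describe ICR mice aged 6 to 7 weeks. They also differ in the plates, with 48 wells in the labels and 6 wells in the methods. No allele or transgene is named in either.

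RANKL alone is not enough for an osteoclast to form, because a costimulatory signal is needed through receptors that carry no signalling tail of their own. OSCAR pairs with the adaptor FcRγ, encoded by Fcer1g, and TREM2 and Siglec-15 pair with the adaptor DAP12, encoded by Tyrobp. When the receptor is engaged, SRC family kinases phosphorylate the paired tyrosines of the adaptor, which are called an ITAM. SYK docks there and acts with the scaffold BLNK and the kinases BTK and TEC on phospholipase Cγ2, encoded by Plcg2. The calcium released in this way activates NFATc1, the master transcription factor of osteoclasts.

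Levels are given as RPKM, read counts scaled to transcript length and to sequencing depth, so that genes of different length can be set side by side. The depth of each library was fitted as the value that brought RPKM times the deposited transcript length closest to whole reads. This gave depths between 29390185 and 34846362 mapped reads per library. Of these, 74.2% to 80.7% lay on genes. The ribosomal precursor entry Rn45s made up 4.97% and 6.83% of gene reads in the -R libraries, against 10.9% to 13.5% in the 4 others. Nothing in the labels says that replicates came from separate cultures or animals, so p-values measure only the spread between these libraries. A gene was tested with limma on log2(RPKM + 0.5), fitted over all 11595 genes, and passed when its p, adjusted by the Benjamini-Hochberg method, was below 0.05. It was called when it also changed at least 2-fold. The added 0.5 shrinks the fold changes of weakly expressed genes. In groups of 2 libraries, an exact permutation test of a single gene cannot go below a p of 0.333, so every test here rests on the spread shared across genes.

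Markers of the labelled cells were present. Of 7 macrophage markers, all were detected, and their summed level was 6664 to 7250 RPKM in -R, 2690 to 3454 in +R and 3762 to 4204 in R+LE. The summed level of 7 osteoclast markers was 43.1 to 44.9 RPKM in -R, 1843 to 2102 in +R and 329 to 379 in R+LE. Since these are bulk samples, fewer cells of a type and less RNA per cell cannot be told apart. B cell markers, 5 of 6 of them in the table, summed to 1.57 to 1.96 RPKM in -R and at most 0.124 RPKM elsewhere. Mast cell and basophil markers summed to at most 0.082 RPKM, and Fcer1a, Ms4a2, Cpa3, Cma1 and Tpsb2 were at 0 in every library. Neutrophil markers summed to 15.6 to 17.5 RPKM in -R and at most 2.53 RPKM elsewhere, and nearly all of it was S100a8 and S100a9. The summed level of 7 T and NK cell markers was 2.61 to 3.60 RPKM, mostly Cd247, with Cd3e at 0 in all libraries. Dendritic cell markers summed to 3.12 to 7.84 RPKM, with the highest values in +R. Most of it was Itgax, at 6.99 and 4.06 RPKM in the +R libraries. Zbtb46 also had a higher mean in +R than in -R, whereas Flt3, Ccr7, Xcr1 and Siglech had lower ones. Stromal markers summed to 14.4 to 16.3 RPKM in -R, 10.4 to 14.5 in +R and 7.49 to 8.55 in R+LE. Of 6 erythroid and megakaryocyte markers, 4 were at 0 throughout, and the sum was 119 to 123 RPKM in -R, 6.00 to 8.71 in +R and 12.7 to 18.3 in R+LE, nearly all of it Pf4. The part of these other cells in the results below was not tested.

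To see how RANKL set the pathway, +R was compared with -R. Among the receptors, Oscar and Siglec15 rose from no reads at all while Trem2 fell 3.85-fold. Of the adaptors, Fcer1g fell 2.17-fold, and the difference of Tyrobp lay within the spread between replicates. Downstream, Blnk rose, Syk, Tec and Plcg2 fell, and Btk did not pass the test. Of the 10 genes, 3 passed upward and 5 downward, and 2 were called higher and 2 lower. Among all genes tested, 45.4% passed in this comparison, 23.9% upward and 21.5% downward, and 15.5% were called, 6.58% higher and 8.92% lower. The libraries of the compared groups did not overlap for 8 of the 10 genes, nor for 75.2% of all genes. The median log2 fold change of the 10 genes was -0.26, against 0.05 for all genes tested.

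**Figure D1:**
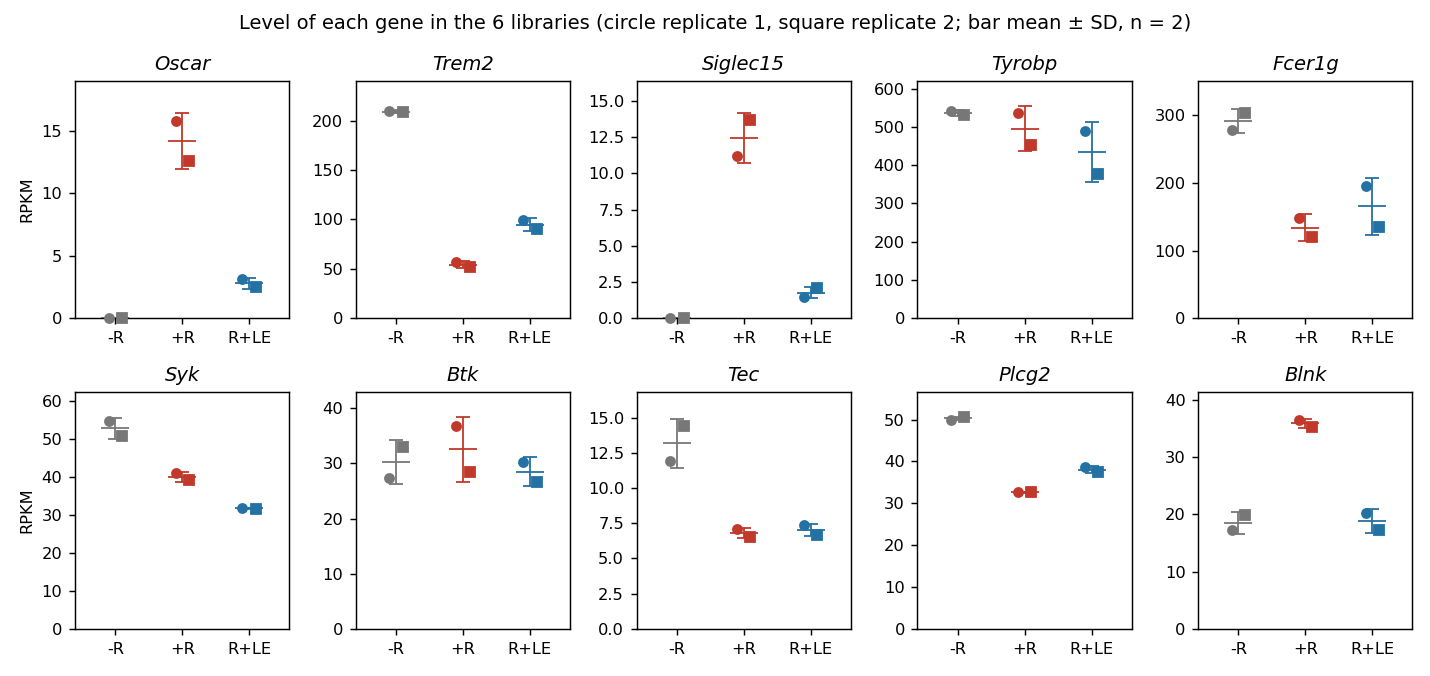
Level of each of the 10 genes in RPKM (linear axes from 0, one scale per gene) in the -R, +R and R+LE libraries, with circles for replicate 1, squares for replicate 2 and bars for the mean ± SD of 2 libraries. Oscar and Siglec15 are at 0 in both -R libraries and highest in +R, while Trem2 runs the other way, from 208 and 210.1 RPKM in -R down to 51.8 and 57.0 RPKM in +R.

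Oscar encodes an immunoglobulin-like receptor that binds exposed collagen. It lies on chromosome 7 of mm10 from 3609815 to 3616157 on the minus strand. There was no read in either -R library, against 15.8 and 12.6 RPKM in +R (881 and 703 reads) and 3.12 and 2.49 RPKM in R+LE (179 and 138 reads). The 3 groups did not overlap. Taking 3 reads per library as what a count of 0 allows, Oscar was at least 274-fold higher in +R and at least 54.2-fold higher in R+LE than in -R. Siglec15 encodes a sialic acid-binding lectin and lies on chromosome 18 from 78043614 to 78057268. It too had no read in -R, and it had 11.2 and 13.7 RPKM in +R (352 and 429 reads) and 1.49 and 2.06 RPKM in R+LE (48 and 64 reads). The groups were again fully apart, and by the same limit Siglec15 was at least 135-fold higher in +R and at least 19.2-fold higher in R+LE than in -R. The ranges of Oscar and Siglec15 overlapped within +R, so their levels there could not be ranked.

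Trem2, a lipid-sensing receptor of macrophages on chromosome 17 from 48346401 to 48352276, was the dominant receptor of the 3 without RANKL. It was at 210.1 and 208 RPKM in -R, 57.0 and 51.8 RPKM in +R and 99.6 and 90.1 RPKM in R+LE, with at least 1725 reads in every library. Both +R libraries lay below both R+LE libraries, which in turn lay below both -R libraries. The log2 fold change with RANKL was -1.94 (95% interval -2.25 to -1.62, adjusted p = 5.08e-08 in limma), a 3.85-fold lower mean. Of the 7 macrophage markers, 6 passed downward as well, where 21.5% of all genes did so, and the median log2 fold change of the 7 was -0.85. Itgam had a log2 fold change of 0.34 and did not pass (adjusted p = 0.0847 in limma).

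The summed RNA of the 3 receptors was 210.1 and 208 RPKM in -R, 84.0 and 78.1 RPKM in +R and 104 and 94.6 RPKM in R+LE. Trem2 supplied all of it in -R. Its share was 67.9% and 66.4% in +R, and it was 95.6% and 95.2% in R+LE. Oscar and Siglec15 together supplied 32.1% and 33.6% of receptor RNA in +R and 4.42% and 4.81% in R+LE.

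**Figure D2:**
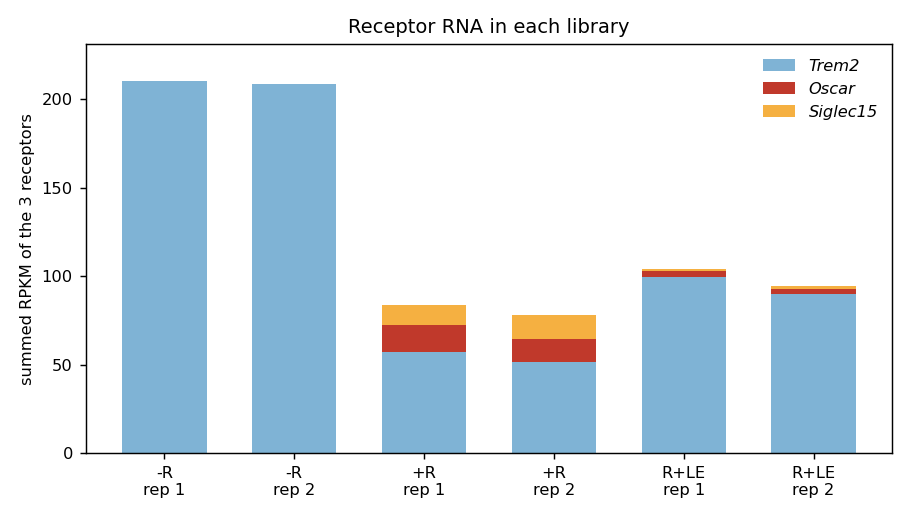
Summed RPKM of Trem2, Oscar and Siglec15 in each of the 6 libraries, stacked by receptor from 0. Trem2 is the only part visible in -R, and Oscar and Siglec15 make up 32.1% and 33.6% of the bar in the +R libraries.

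The sequences before the start sites of Oscar and Trem2 are shown because these receptors moved in opposite directions. Each is the 250 bases before the start site in the RefSeq table of GRCm38.p6, which is the mm10 build, read on the strand of the gene, with matches to a searched motif in capitals. Oscar is at chr7:3616158-3616407 on the minus strand and Trem2 at chr17:48346151-48346400 on the plus strand.
Oscar: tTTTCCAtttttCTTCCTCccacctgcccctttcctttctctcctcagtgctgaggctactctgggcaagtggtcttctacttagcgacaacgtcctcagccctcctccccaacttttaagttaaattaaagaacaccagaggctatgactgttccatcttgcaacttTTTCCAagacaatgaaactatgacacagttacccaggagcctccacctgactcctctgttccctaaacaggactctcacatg
Trem2: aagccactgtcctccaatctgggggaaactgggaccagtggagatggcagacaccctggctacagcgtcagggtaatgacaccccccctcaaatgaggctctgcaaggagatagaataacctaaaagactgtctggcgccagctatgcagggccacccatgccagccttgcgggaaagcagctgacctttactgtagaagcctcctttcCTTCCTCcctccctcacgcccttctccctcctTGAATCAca
The motifs, searched on both strands, were TGGAAA for NFAT, GAGGAAG for PU.1, TGANTCA for AP-1, CACGTG for the E-box bound by MITF and the κB motif for NF-κB, and none of the matches shown overlap each other. Start sites were found for 8 of the 10 genes, without Siglec15 and Tyrobp. Oscar had 2 NFAT matches, whose first bases lay 249 and 82 bases before the start site, and 1 PU.1 match at 238 bases, all on the opposite strand. Trem2 had 1 PU.1 match at 41 bases and 1 AP-1 match at 9 bases. Plcg2 had 1 E-box match at 20 bases, and Fcer1g, Syk, Btk, Tec and Blnk had no match in this window. Over 32851 promoters of the same length, 18.6% held the NFAT motif, 10.6% PU.1, 6.75% AP-1, 6.02% the E-box and 1.41% NF-κB. A match to such short motifs is a description of the letters and not a binding site. The window of Blnk belongs to a start site 314 bases downstream of the start of the deposited transcript.

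**Figure D3:**
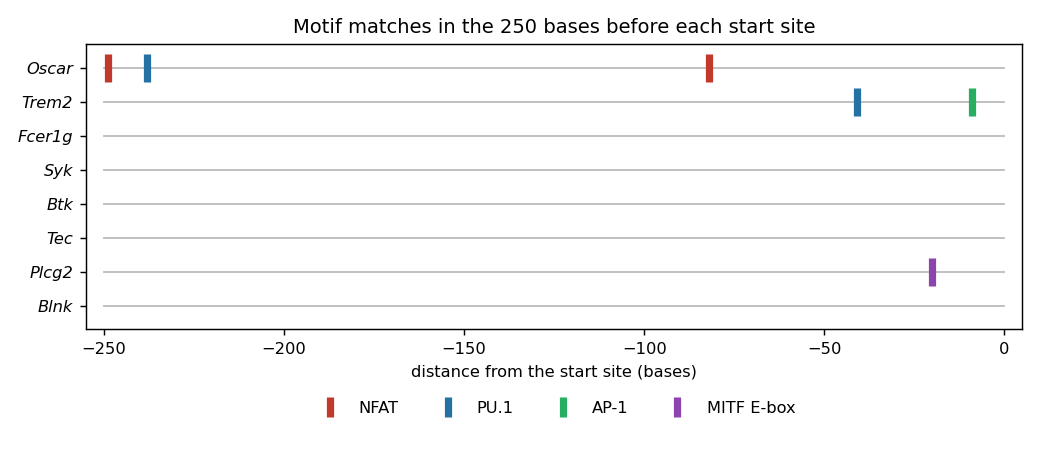
Positions of motif matches in bases before the start site for the 8 genes with a promoter sequence, coloured by motif. Matches are present in Oscar (249, 238 and 82 bases), Trem2 (41 and 9 bases) and Plcg2 (20 bases).

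The adaptors were the most abundant members in every group. Tyrobp, on chromosome 7 from 30413788 to 30417579, was at 543 and 532 RPKM in -R, 536 and 453 RPKM in +R and 489 and 378 RPKM in R+LE. The -R and +R libraries overlapped, and so did +R and R+LE. Its log2 fold change was -0.12 with RANKL (95% interval -0.53 to 0.28, adjusted p = 0.624 in limma), and the interval reaches from a fall of 0.53 to a rise of 0.28. With quantile normalization Tyrobp passed, at -0.38 (adjusted p = 0.00291 in limma). Fcer1g, on chromosome 1 from 171229572 to 171234349, was at 278 and 303 RPKM in -R, 148 and 119.6 RPKM in +R and 195 and 135 RPKM in R+LE. Both +R libraries lay below both -R libraries, with a log2 fold change of -1.12 (95% interval -1.53 to -0.72, adjusted p = 0.000192 in limma). Without +R replicate 2 its log2 fold change was -0.97, short of 2-fold. The adaptors are among the shortest transcripts here, at 559 nt for Tyrobp and 651 nt for Fcer1g, and R+LE replicate 2 was low for short transcripts. The median log2 difference between R+LE replicates 2 and 1 was -0.25 for 756 tested genes under 700 nt and -0.13 for all genes tested, against -0.37 for Tyrobp and -0.52 for Fcer1g. Between +R replicates 2 and 1 these medians were -0.05 and -0.08, against -0.24 for Tyrobp and -0.31 for Fcer1g. For -R they were -0.06 and 0.05, against -0.03 for Tyrobp and 0.13 for Fcer1g. The part of transcript length in the adaptor values was not tested.

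Set against its own adaptor, Trem2 stood at 38.7% and 39.2% of Tyrobp in -R. It was at 10.6% and 11.4% in +R and stood at 20.4% and 23.8% in R+LE. Oscar stood at 10.6% and 10.5% of Fcer1g in +R and at 1.60% and 1.84% in R+LE. Siglec15 stood at 2.09% and 3.01% of Tyrobp in +R and at 0.304% and 0.544% in R+LE. In each library, then, the adaptor RNA exceeded that of each of these receptors. Both adaptors together were between 3.91 and 8.15 times the 3 receptors together. The adaptors are shared with the other receptors listed further below, which these ratios leave out. Those receptors summed to 657 to 658 RPKM in -R, 170.2 to 210 RPKM in +R and 339 to 414 RPKM in R+LE. These are ratios of RPKM and were not tested.

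Syk encodes the tyrosine kinase that binds phosphorylated ITAMs, on chromosome 13 from 52583437 to 52648792. It was at 54.6 and 50.8 RPKM in -R, 40.9 and 39.0 RPKM in +R and 31.8 and 31.6 RPKM in R+LE, with at least 4884 reads per library. The 3 groups did not overlap and stepped downward in that order. Its log2 fold change with RANKL was -0.40 (95% interval -0.69 to -0.10, adjusted p = 0.028 in limma). Syk no longer passed with Rn45s left out of the depth, at -0.33 (adjusted p = 0.0522 in limma). Without any single library of -R or +R it did not pass either, with log2 fold changes from -0.45 to -0.34 and adjusted p-values from 0.0799 to 0.183. Plcg2 lies on chromosome 8 from 117498275 to 117635142, and its product cleaves a membrane lipid to release calcium. It was at 50.0 and 50.5 RPKM in -R, 32.8 and 32.6 RPKM in +R and 38.6 and 37.55 RPKM in R+LE. Here too no groups overlapped, and the log2 fold change with RANKL was -0.61 (95% interval -0.90 to -0.32, adjusted p = 0.00172 in limma).

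The TEC family kinases BTK and TEC phosphorylate phospholipase Cγ2, and only the gene of TEC passed with RANKL. The difference between their changes was not tested. Btk, on chromosome X from 134542341 to 134583140, was at 27.4 and 33.0 RPKM in -R, 36.7 and 28.4 RPKM in +R and 30.3 and 26.6 RPKM in R+LE. All groups overlapped, and the log2 fold change with RANKL was 0.10 (95% interval -0.24 to 0.44, adjusted p = 0.637 in limma). Tec, on chromosome 5 from 72755718 to 72868448, was at 11.95 and 14.4 RPKM in -R, 7.07 and 6.54 RPKM in +R and 7.34 and 6.70 RPKM in R+LE. Both libraries of -R lay above the other 4, and the log2 fold change with RANKL was -0.90 (95% interval -1.20 to -0.59, adjusted p = 0.000107 in limma).

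Blnk encodes the scaffold that gathers BTK, TEC and phospholipase Cγ2 once SYK has phosphorylated it, and lies on chromosome 19 from 40928927 to 40994535. Of the 5 downstream members it alone passed upward with RANKL. It was at 17.2 and 19.9 RPKM in -R, 36.4 and 35.3 RPKM in +R and 20.3 and 17.3 RPKM in R+LE. Both +R libraries lay above the other 4, and the -R and R+LE libraries overlapped. The log2 fold change with RANKL was 0.94 (95% interval 0.63 to 1.24, adjusted p = 7.59e-05 in limma), just under 2-fold. Blnk is also a B cell gene. The B cell markers summed to 0.099 and 0.105 RPKM in the +R libraries and to 0.048 and 0.124 RPKM in R+LE, and their part in the Blnk values was not tested.

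Ranked by level, Tyrobp, Fcer1g and Trem2 led in that order in all 3 groups. In -R, Syk and Plcg2 followed with means of 52.7 and 50.3 RPKM, which differed by less than the SD of Syk. In +R the order was Syk, Blnk, Plcg2, Btk, Oscar, Siglec15 and Tec, where Plcg2 and Btk overlapped, as did Oscar and Siglec15. In R+LE Plcg2 stood above Syk, and Oscar and Siglec15 were last, at means of 2.80 and 1.77 RPKM. No exon of the 10 genes shared a base with an exon of another gene in GENCODE M21, so counting without regard to strand mixed in no annotated neighbour.

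**Figure D4:**
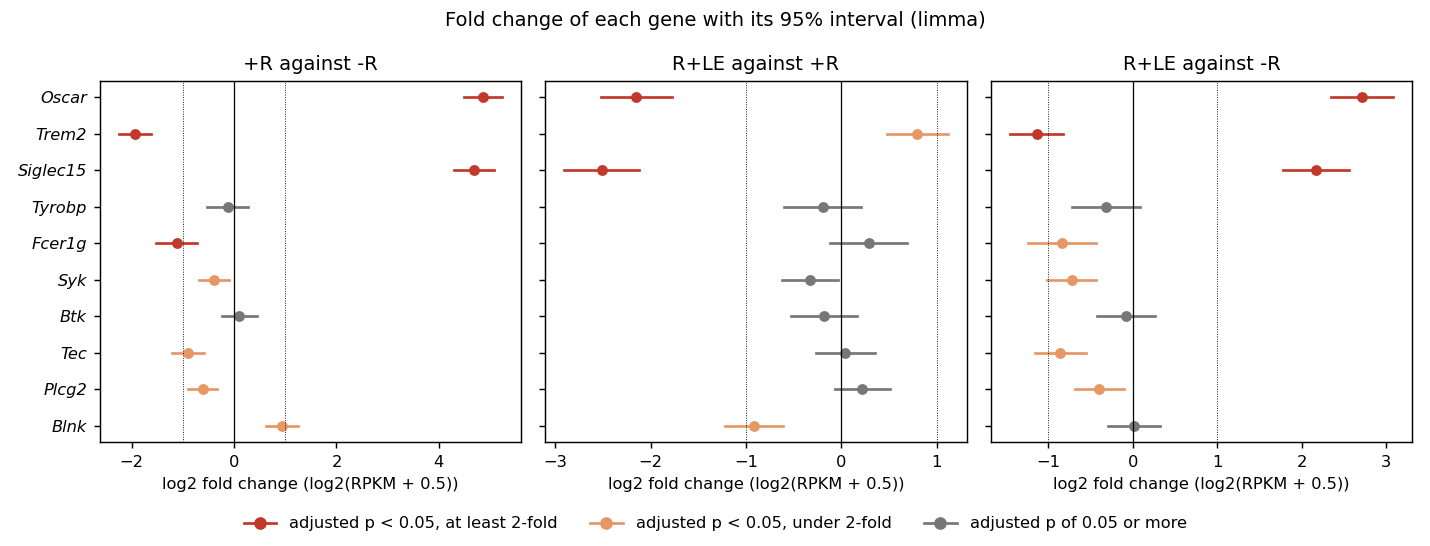
Log2 fold change of each gene on the log2(RPKM + 0.5) scale with its 95% interval from limma in the 3 comparisons, with dotted lines at 2-fold. Oscar and Siglec15 lie far to the right in +R against -R (4.87 and 4.69, values that depend on the added 0.5) and to the left in R+LE against +R (-2.15 and -2.52), where 6 of the 10 genes, in grey, do not pass.

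To ask what LE changed in the presence of RANKL, R+LE was compared with +R. Oscar and Siglec15 fell to 19.8% and 14.2% of their +R means, Blnk fell until its libraries overlapped those of -R, and Trem2 rose. The other 6 genes did not pass. Of the 10 genes, 3 passed downward and 1 upward, and 2 were called, both lower. Among all genes tested, 12.0% passed, 5.19% upward and 6.86% downward, and 3.23% were called, 1.46% higher and 1.78% lower. The libraries did not overlap for 6 of the 10 genes, nor for 49.0% of all genes. The median log2 fold change of the 10 genes was -0.19, against -0.05 for all genes tested. This comparison shares the +R libraries with that of RANKL, so the comparisons are not independent.

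Of the 10 genes, Oscar and Siglec15 differed most. Oscar had a log2 fold change of -2.15 (95% interval -2.52 to -1.78, adjusted p = 1.11e-06 in limma) and Siglec15 one of -2.52 (95% interval -2.91 to -2.12, adjusted p = 4.77e-07 in limma). No group received LE without RANKL, so a reversal of the RANKL change and a separate effect of LE cannot be told apart. On the RPKM scale Oscar was lower in R+LE than in +R by 80.2% of its rise with RANKL. The separate R+LE libraries gave 78.0% and 82.4%. For Siglec15 this share of the rise was 85.8%, with 88.0% and 83.5%. On the log2(RPKM + 0.5) scale of the tests the shares were 44.2% and 53.7%, which depend on the added 0.5 because -R was at 0. Trem2 rose by 0.80 on the log2 scale (95% interval 0.48 to 1.11, adjusted p = 0.00212 in limma). In RPKM this rise was 26.1% of its fall with RANKL, with 29.2% and 23.0% in the separate libraries. On the log2 scale this share was 41.1%. How close it lay to the shares of Oscar and Siglec15 there depends on the added 0.5. Alongside these, all 7 osteoclast markers were called lower, while 2 of 7 macrophage markers, Cd14 and Mertk, passed upward. The other 5 macrophage markers did not pass. Adgre1, Lyz2 and Itgam had log2 fold changes of 0.53, 0.54 and 0.22, and Cd68 and Csf1r had -0.41 and -0.16.

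Neither adaptor passed after LE. Tyrobp had a log2 fold change of -0.20 (95% interval -0.60 to 0.21, adjusted p = 0.62 in limma) and Fcer1g one of 0.29 (95% interval -0.12 to 0.69, adjusted p = 0.426 in limma). The Fcer1g libraries of +R and R+LE overlapped, and without R+LE replicate 2 Fcer1g passed, at 0.55 with an adjusted p of 0.0382 in limma. It also passed with quantile normalization, at 0.39 (adjusted p = 0.0411 in limma).

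Among the downstream genes, Blnk fell by 0.92 on the log2 scale (95% interval -1.23 to -0.61, adjusted p = 0.000525 in limma). Syk had a log2 fold change of -0.33 (95% interval -0.62 to -0.04), with an unadjusted p of 0.0299 and an adjusted p of 0.153 in limma. Both R+LE libraries of Syk lay below both +R libraries. Plcg2 had a log2 fold change of 0.22 (95% interval -0.07 to 0.50, adjusted p = 0.386), Btk one of -0.18 (95% interval -0.53 to 0.16, adjusted p = 0.582) and Tec one of 0.04 (95% interval -0.26 to 0.35, adjusted p = 0.917), all in limma.

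Cells given RANKL and LE were finally compared with cells that had received neither. Oscar and Siglec15 were still called higher in R+LE, at the bounds given above, and Trem2 was called lower, at 45.3% of its -R mean. Fcer1g, Syk, Tec and Plcg2 passed downward without reaching 2-fold. Of the 10 genes, 2 passed upward and 5 downward, while of all genes 34.3% passed, 15.3% upward and 19.0% downward, and 10.3% were called, 3.92% higher and 6.36% lower. The libraries did not overlap for 8 of the 10 genes, nor for 65.5% of all genes. Blnk did not pass, with a log2 fold change of 0.02 (95% interval -0.29 to 0.32, adjusted p = 0.94 in limma). Syk had the value -0.72 (95% interval -1.02 to -0.43, adjusted p = 0.000731), Tec -0.86 (95% interval -1.16 to -0.55, adjusted p = 0.000246) and Fcer1g -0.84 (95% interval -1.24 to -0.43, adjusted p = 0.00307), all in limma. For Fcer1g the adjusted p was 0.0525 without a filter on low values and 0.0711 without -R replicate 2. Plcg2 had -0.40 (95% interval -0.68 to -0.11, adjusted p = 0.034 in limma), and it did not pass under 6 alternatives, with log2 fold changes from -0.40 to -0.32 and adjusted p-values from 0.0679 to 0.148. These were a fit of the compared groups alone, Rn45s left out of the depth, and each library of -R or +R left out. Tyrobp had -0.32 (95% interval -0.73 to 0.08, adjusted p = 0.209) and Btk -0.08 (95% interval -0.42 to 0.26, adjusted p = 0.735), which did not pass in limma. Tyrobp did pass with quantile normalization, at -0.46 (adjusted p = 0.00136), and without R+LE replicate 1, at -0.51 (adjusted p = 0.0211).

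The wider pathway was read from lists of genes by role. Of 20 other receptors that pair with DAP12 or FcRγ, 17 were tested. With RANKL 11 of them passed downward and 2 upward, where 21.5% and 23.9% of all genes did so. The largest falls were those of the Fcγ receptors, which bind antibody. Fcgr1 was at 68.3 and 69.2 RPKM in -R and at 1.51 and 1.77 RPKM in +R, a log2 fold change of -5.02. Fcgr3 and Fcgr4 had -3.51 and -2.27. The summed level of the whole list was 657 to 658 RPKM in -R, 170.2 to 210 RPKM in +R and 339 to 414 RPKM in R+LE. With LE 8 passed upward and none downward, where 5.19% and 6.86% of all genes did so. Clec4d and Clec4e, lectins that sense microbial and damaged-cell ligands, rose by 1.52 and 1.43, and Fcgr3 by 1.05. The list had a median of -0.85 with RANKL and 0.59 with LE, while the medians of all genes tested were 0.05 and -0.05. The Fcγ receptors and the Clec4, Pira, Pilrb and Sirpb1 genes belong to families with close copies, among which the counting could have split reads.

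SRC family kinases start the signal by phosphorylating the ITAM. Of 12 listed kinases and switches, 9 were tested, 3 passed upward with RANKL and 5 downward, where 23.9% and 21.5% of all genes did so. The median log2 fold change of the list was -0.36, against 0.05 for all genes. Src itself was at 1.32 and 1.37 RPKM in -R, 37.2 and 32.9 RPKM in +R and 9.79 and 10.8 RPKM in R+LE. Its log2 fold change was 4.27 with RANKL and -1.72 with LE (adjusted p = 1.11e-06 in limma). Fgr rose by 2.53 with RANKL and had a log2 fold change of -0.10 with LE (adjusted p = 0.746 in limma), at 20.6 and 20.1 RPKM in R+LE. Lyn, the most abundant kinase of the family in -R at 78.9 and 85.5 RPKM, fell by 1.04 on the log2 scale with RANKL. Src was the only gene of the 9 tested in this list to pass with LE, where 12.0% of all genes passed, so this count lay near the background.

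Of 30 further adaptors and effectors, 25 were tested, with 5 passing upward and 9 downward under RANKL, and 1 upward and 4 downward under LE. The shares of all genes were 23.9% and 21.5% under RANKL and 5.19% and 6.86% under LE, so the upward counts lay near the background. The median log2 fold changes of the list were -0.27 and -0.01. Lat, a scaffold best known from T cells, had 0 and 0.183 RPKM in -R, 10.2 and 7.43 RPKM in +R and 2.50 and 2.17 RPKM in R+LE. Nfatc1, the end point of the pathway, had a log2 fold change of 3.10 with RANKL and -1.31 with LE. Malt1, which couples ITAM receptors to NF-κB, rose by 1.73 with RANKL. Pik3ap1, an adaptor of phosphoinositide 3-kinase, Itpr3, a calcium release channel, and Rasgrp3, a Ras activator, had log2 fold changes of -1.85, -1.72 and -1.58 with RANKL. None of these 3 passed with LE.

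Inhibitory receptors and phosphatases oppose the ITAM signal. Of 25 listed genes, 22 were tested, with 5 passing upward and 10 downward under RANKL and 6 upward and 3 downward under LE. Against the same shares of all genes, the 5 upward under RANKL lay near the background. The median log2 fold changes of this list were -0.25 with RANKL and -0.01 with LE. Cd300lf, Lilrb4a and Cd300a, which carry inhibitory motifs, fell with RANKL, with log2 fold changes of -3.69, -2.36 and -1.95, and Siglece rose by 1.14. Cd300a was at 81.5 and 78.1 RPKM in -R, 23.2 and 17.9 RPKM in +R and 72.7 and 61.9 RPKM in R+LE. With LE it rose by 1.70 and Lilrb4a by 1.06, the 2 called genes of this list.

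**Figure D5:**
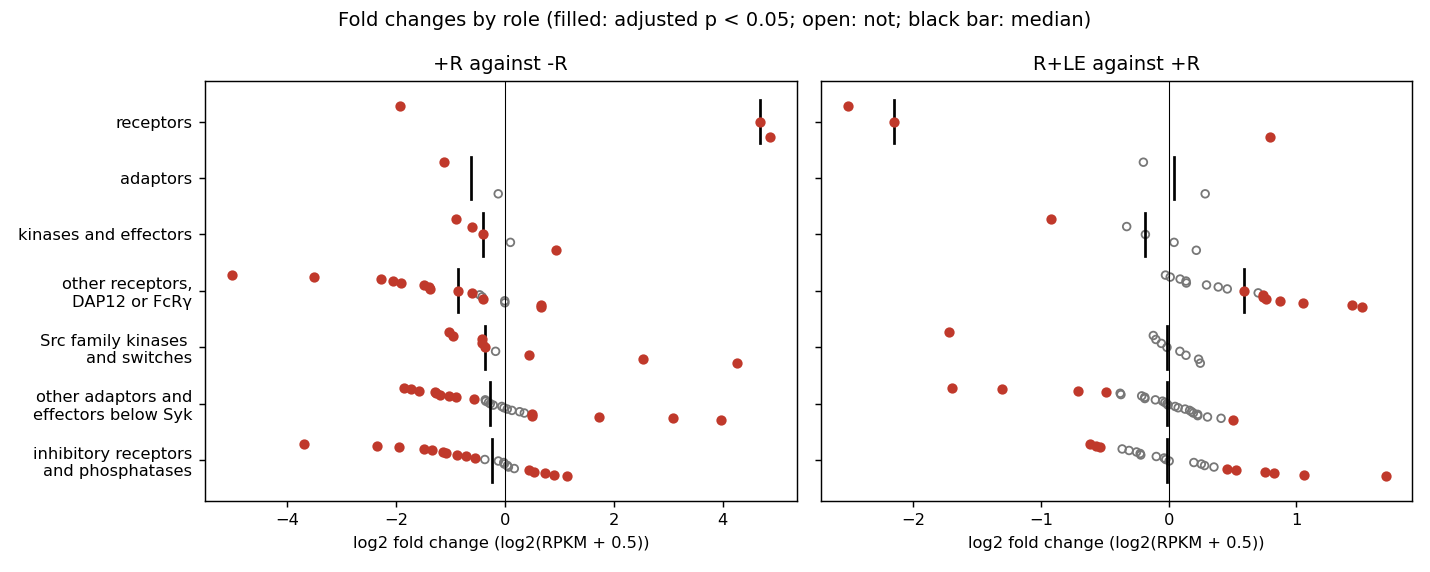
Log2 fold changes on the log2(RPKM + 0.5) scale for +R against -R and for R+LE against +R, 1 point per tested gene, grouped by role, with filled points for an adjusted p below 0.05 and a black bar at the median of each list. The other receptors that use DAP12 or FcRγ have a median of -0.85 on the left and 0.59 on the right, whereas the 3 lists under them have LE medians of -0.01.

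The genes whose profile was closest to that of each receptor were found by the root mean square difference of centred log2(RPKM + 0.5) values over the 6 libraries. Among the 3 closest to Oscar were Spns2 and Acp5, with differences of 0.15 and 0.19. Acp5, which encodes the TRAP enzyme used to stain osteoclasts, had means of 34.2, 879 and 166 RPKM in -R, +R and R+LE. Among the 3 closest to Siglec15 were Mmp14, a membrane-bound metalloproteinase, and Akap6, with differences of 0.16 and 0.21. Closest to Trem2 were Adam8, Abcd2 and Itgb5, with differences of 0.05, 0.06 and 0.07. Adam8, a membrane protease, had means of 562, 153 and 246 RPKM in -R, +R and R+LE. The libraries fall into only 3 groups, so many genes share such a shape, and the likeness is a description.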

How the data were processed

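The deposited table holds RPKM values for 24940 genes in 6 libraries of mouse BMMs. The authors aligned paired reads of 100 bp to mm10 with TopHat according to the methods of the study, while the submitters' processing notes name HISAT2, HOMER and DESeq2. The deposited RPKM come from HOMER, which counted reads on the exons of either strand and kept 1 transcript per gene, under column titles that say FPKM. Versions are not given in the sources used here. The transcript length in nt is another deposited column. Of the symbols, 26 had become dates and were restored from transcript identifiers.

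Genes whose mean reached 0.5 RPKM were kept, and log2(RPKM + 0.5) of all 3 groups was fitted with limma 3.58.1 in R 4.3.3, with a variance trend and Benjamini-Hochberg adjustment over 11595 genes. Python 3.11.15 with pandas 2.3.3, numpy 2.4.6 and matplotlib 3.10.9 handled tables and figures. Whole reads came from RPKM, length and the fitted depth. With a tolerance of 0.1 read, 100% of the values checked in each library were whole, but the depth had been fitted to such values. The limit of 3 reads for a count of 0 covers counting error only. The fit was first tested on simulated data. There 20 of 58 genes with a true 2-fold change were called and 44 passed. Of genes changed 4-fold 68 of 71 were called, and of those changed 8-fold 68 of 68. Among the 11581 genes tested there, 8 unchanged genes were called.

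Groups and replicate numbers came from the sample titles. The members and the gene lists were chosen with earlier results of these data known. The 10 genes are all named. Of each pathway list, the called genes that changed most are named, up to 3 per direction for RANKL and for LE, together with genes among the 3 closest to each receptor and list markers. Some genes that this rule would name are not reported here. The lists cover other ITAM receptors, SRC family kinases, other adaptors and effectors, inhibitory genes, and markers of macrophages, osteoclasts, B cells, T and NK cells, neutrophils, mast cells, dendritic cells, stroma, and erythroid cells and megakaryocytes.

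As alternatives, the pseudocount was set to 0.1 or 1, the filter was dropped or raised to a mean of 1 RPKM, and the variance trend was left out. Fits were also made on the compared groups alone, after centring on the median, after quantile normalization, with a term for the replicate number, with voom on whole reads, without Rn45s in the depth, and without each library in turn. Experiments of the study other than RNA-seq were not analysed here.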

Additional observations from a re-analysis of the deposited data

How the results depend on the processing

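The 10 genes were followed through 17 alternatives in 3 comparisons, 510 values in all, of which 483 kept their direction and their side of an adjusted p of 0.05, 13 no longer passed, 5 newly passed and 9 changed sign. Oscar, Siglec15, Trem2 and Blnk passed in all of them with RANKL and with LE, Oscar between -2.33 and -1.99 and Siglec15 between -2.82 and -2.28 with LE on the log2 scale. With RANKL, where -R was at 0, the fitted value of Oscar was 4.87 and ran from 3.92 with a pseudocount of 1 to 7.15 with a pseudocount of 0.1 and 10.7 with voom. That of Siglec15 was 4.69 and ran from 3.74 to 6.96 and 9.66 under the same settings. The number of the 10 genes called ranged from 3 to 5 for RANKL, from 2 to 3 for LE and from 3 to 4 for R+LE against -R, and genes moved across 2-fold only with single libraries left out. Besides Fcer1g with RANKL, these were Tec at -1.03 with RANKL without -R replicate 1, Blnk at 1.04 with RANKL without -R replicate 2 and at -1.03 with LE without R+LE replicate 1, and Fcer1g at -1.10 for R+LE against -R without R+LE replicate 1. The sign changes were all of values that did not pass. With single libraries left out, Btk ranged from -0.081 to 0.28 with RANKL and from -0.21 to 0.050 for R+LE against -R, Tec from -0.020 to 0.10 with LE, and Blnk from -0.094 to 0.13 for R+LE against -R. With quantile normalization Btk was 0.041 for R+LE against -R. The labels do not say whether the replicate numbers pair the samples. The correlation of deviations between same-numbered libraries was -0.05 for +R and -R, 0.25 for R+LE and +R and 0.11 for R+LE and -R. Such correlations cannot settle whether same-numbered libraries share a culture or animal. With the number as a replicate block, 4, 2 and 3 of the 10 genes were called in the 3 comparisons, as without it, and 1801, 389 and 1200 of all genes, against 1797, 375 and 1192. The call counts of all genes stayed within 1.5 times of these under every alternative. Counts behind Siglec15 in R+LE were 48 and 64 reads, the lowest of any detected value of the 10 genes.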
